A study of Mus musculus with 2 samples.

Results

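The 4 tropomyosin genes of the mouse, Tpm1, Tpm2, Tpm3 and Tpm4, and the isoforms made from them were described in long reads of gastrocnemius, the large calf muscle. Their members were found by gene name: every transcript model, meaning one exon structure with the reads placed on it, that the deposited tables assign to one of these 4 genes. That gave 148 of 85714 models in replicate 1 and 162 of 92049 models in replicate 2, from 4 of the 15371 annotated genes with a read. Both libraries came from female mice of the strain B6CASTF1/J, a first-generation hybrid of B6 and Cast, aged 2 months, with no treatment or engineered allele named. The libraries held 1349298 and 1359923 reads. Replicate 1 is animal 3 and replicate 2 is animal 4, each with 2 µg of RNA, although the labels give both the same donor identifier. There was 1 group and therefore no comparison between conditions. Every test below compares these 2 libraries, has no replicate check, and measures counting error alone, as do the intervals.

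Tropomyosins are coiled-coil proteins that polymerise head to tail along actin filaments. In striated muscle they sit on the thin filament with troponin and, as calcium changes, cover or uncover the sites to which myosin binds. Outside the sarcomere, other isoforms of the same genes decide which actin-binding proteins reach a filament. Tpm1 encodes the alpha chain known from fast fibres, Tpm2 the beta chain, Tpm3 the alpha chain known from slow fibres, and Tpm4 a cytoskeletal chain. One gene yields both kinds through a choice of promoter and of exons. The upstream promoter starts at exon 1a and the internal promoter at exon 1b. Exons 2a and 2b replace each other, as do 6a and 6b, which code for a stretch of the actin-binding rod. The last exons are called 9a to 9d in the order in which they are transcribed. They carry the end that overlaps the next tropomyosin and, in muscle forms, meets troponin. Exon 9b adds only 1 coding base in the muscle transcripts Tpm1-205 and Tpm3-205.

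A model was called muscle type when it held a muscle last exon (9a or 9b) or, where its end could not be told, exon 1a or 6b. It was called cytoskeletal when it held exon 1b or last exon 9c or 9d, and mixed when it held a muscle end together with 1b, 6a or a cytoskeletal end. The name cytoskeletal follows these exons alone, so the class also takes in Tpm1-215, whose exon 2a is known from smooth muscle. The exons were taken from the GENCODE M21 annotation of mouse build mm10, which has no exon 1a, 6a or 9a for Tpm4. Exons 6a and 6b are shown as an internal pair of alternative exons. Exon 6b does not mark the muscle type by itself, since the cytoskeletal transcripts Tpm1-215, Tpm1-211 and Tpm4-201 hold it too. Capitals mark the bases that differ from the other exon of the same pair, and each sequence runs 5′ to 3′ on the coding strand.

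Tpm1 exon 6a, chr9:67032466-67032541, minus strand: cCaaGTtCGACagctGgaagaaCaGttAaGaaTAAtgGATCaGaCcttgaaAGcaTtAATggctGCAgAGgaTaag
Tpm1 exon 6b, chr9:67031951-67032026, minus strand: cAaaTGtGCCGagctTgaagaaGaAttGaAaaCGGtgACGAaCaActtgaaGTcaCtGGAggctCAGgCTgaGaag
Tpm2 exon 6a, chr4:43519003-43519078, minus strand: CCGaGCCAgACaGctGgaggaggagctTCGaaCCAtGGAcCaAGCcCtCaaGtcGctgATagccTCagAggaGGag
Tpm2 exon 6b, chr4:43518644-43518719, minus strand: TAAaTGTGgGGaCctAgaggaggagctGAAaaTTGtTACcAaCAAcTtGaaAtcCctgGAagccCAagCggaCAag
Tpm3 exon 6a, chr3:90088401-90088476, plus strand: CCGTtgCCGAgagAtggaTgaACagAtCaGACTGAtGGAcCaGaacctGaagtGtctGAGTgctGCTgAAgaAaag
Tpm3 exon 6b, chr3:90089048-90089123, plus strand: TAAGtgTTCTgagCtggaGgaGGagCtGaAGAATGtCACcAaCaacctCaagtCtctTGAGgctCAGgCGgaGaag
Tpm4 exon 6b, chr8:72146452-72146527, plus strand, with no partner to compare: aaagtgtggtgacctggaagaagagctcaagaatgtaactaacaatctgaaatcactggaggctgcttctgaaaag

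All 7 exons are 76 bases long and lie within the coding sequence. Within a gene, 6a and 6b share only 56.6% of positions in Tpm1, 53.9% in Tpm2 and 51.3% in Tpm3. The same exon is closer between genes: 6b of Tpm2 and Tpm3 share 76.3%, 6b of Tpm1 and Tpm3 75.0%, and the pairs with Tpm4 71.1% to 73.7%. Exon 6a shares 61.8% to 65.8% between the 3 genes that have it. The coding sequences of the muscle isoforms are 852 bases long in Tpm1, Tpm2 and Tpm3, without the stop codon, and share 78.3% to 80.4% of positions between genes. The isoforms that start at exon 1b, Tpm3-201, Tpm4-201 and Tpm1-211, code over 744 bases.

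The muscle and cytoskeletal ends of Tpm3 are shown next, in their coding part, since these ends separate its 2 kinds of reads in these libraries. Capitals again mark the bases at which the ends differ.

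Tpm3 exon 9a, chr3:90091013-90091091, plus strand: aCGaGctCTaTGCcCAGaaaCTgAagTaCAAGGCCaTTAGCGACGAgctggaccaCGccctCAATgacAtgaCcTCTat
Tpm3 exon 9d, chr3:90099528-90099607, plus strand: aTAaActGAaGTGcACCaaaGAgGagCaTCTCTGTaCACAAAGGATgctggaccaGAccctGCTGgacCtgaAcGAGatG

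Over the 79 positions compared, exons 9a and 9d of Tpm3 were identical at 45.6%, fewer than the pair 6a and 6b.

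**Figure D1:**
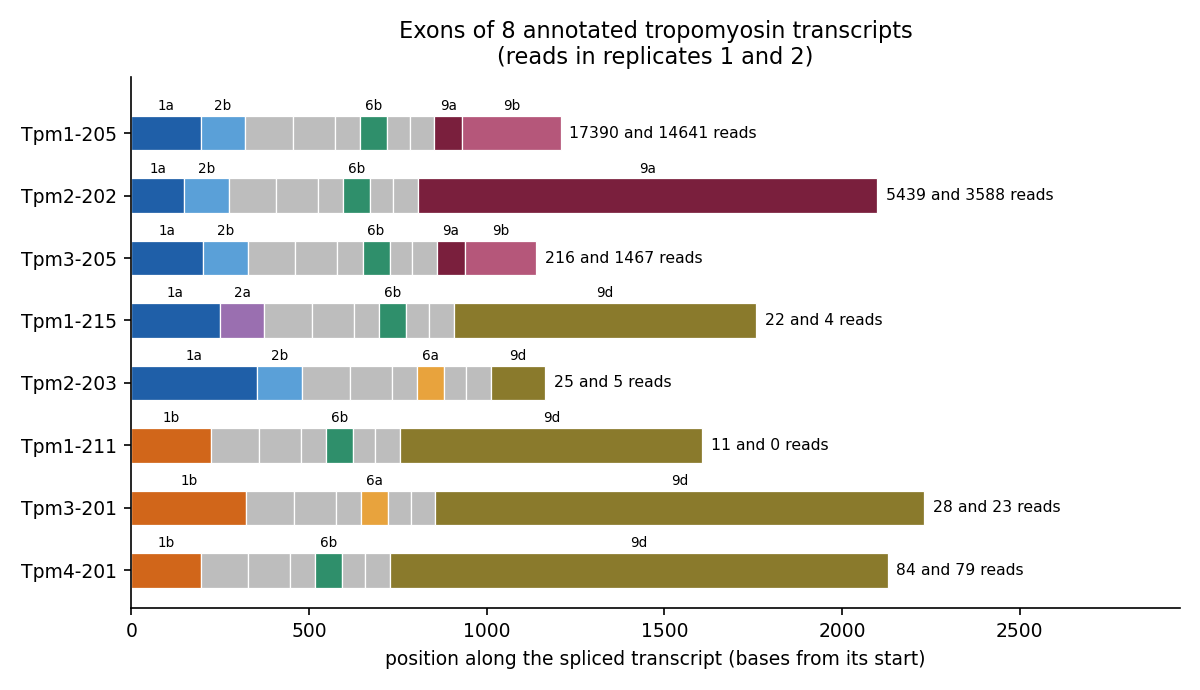
Exons of the 8 annotated tropomyosin transcripts with at least 10 reads in either library, drawn to scale along the spliced transcript in bases, with the alternative exons in colour and the exons shared by the isoforms in grey. The reads of replicates 1 and 2 stand beside each bar, and the 3 muscle transcripts at the top hold nearly all of them.

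Tropomyosin transcripts were abundant in both animals. Tpm1 had 18006 reads in replicate 1 and 15296 in replicate 2, which made it the 5th and the 6th most abundant annotated gene. Tpm2 had 6069 and 4035 reads, Tpm3 267 and 1615, and Tpm4 86 and 83. Scaled to a common library size as CPM, this was 12296 ± 1483 for Tpm1, 3732 ± 1082 for Tpm2, 693 ± 699.8 for Tpm3 and 62.4 ± 1.91 for Tpm4 (SD, n = 2). Each long read was counted once, and these levels were compared between genes without dividing by length. Whether transcript length changes how often a molecule is read was not tested. The order Tpm1, Tpm2, Tpm3, Tpm4 held in both animals, and no gene's value in either library overlapped with that of its neighbour in this order. The 4 genes together took 1.81% of all reads in replicate 1 and 1.55% in replicate 2.

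The genes lie at chr9:67022590-67049406 (Tpm1, ENSMUSG00000032366.15, minus strand), chr4:43514711-43523765 (Tpm2, ENSMUSG00000028464.16, minus strand), chr3:90072649-90100902 (Tpm3, ENSMUSG00000027940.18, plus strand) and chr8:72134975-72153142 (Tpm4, ENSMUSG00000031799.9, plus strand) in mm10. Between the libraries, 3 of the 4 genes differed by Fisher's exact test with Benjamini-Hochberg adjustment over 9341 genes, of which 7.82% were called. Deep genes were called more often: 59.9% of the 257 genes with at least 1000 reads in both libraries together. Tpm1, Tpm2 and Tpm3 are that deep, so their calls are read against that share. Tpm1 was 1.19-fold higher in replicate 1 (95% interval 1.16 to 1.21, adjusted p = 1.22e-52), and 60.7% of tested genes had a larger absolute log2 ratio. Tpm2 was 1.52-fold higher in replicate 1 (1.46 to 1.58, adjusted p = 1.23e-92 by the same exact test). Tpm3 went the other way and was 6.0-fold higher in replicate 2 (5.27 to 6.83, adjusted p = 2.74e-229 by the exact test). Only 0.621% of tested genes had a larger absolute log2 ratio than Tpm3. Tpm4 gave a ratio of 0.958 (0.709 to 1.29, adjusted p = 0.982 by the exact test), so a difference of up to about that interval could not be seen at its depth. When edgeR's exact test was given an assumed dispersion of 0.01, the calls of Tpm1 (adjusted p = 0.852) and Tpm2 (adjusted p = 0.129) were lost, while that of Tpm3 stood (adjusted p = 1.51e-25). In bulk tissue, fewer cells of a type and less RNA per cell cannot be told apart.

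**Figure D2:**
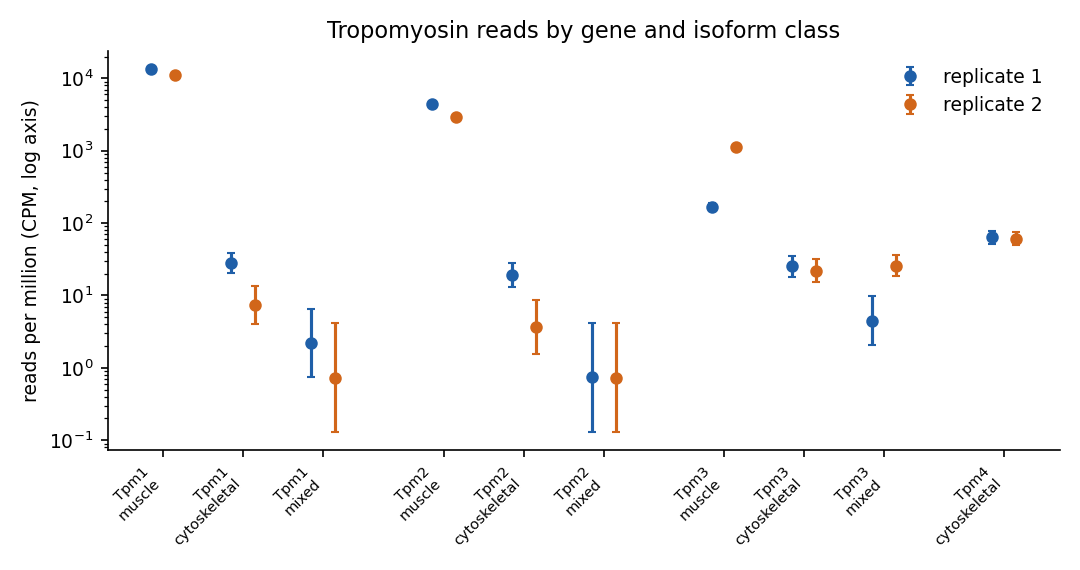
CPM on a log axis for each tropomyosin gene and isoform class, replicate 1 in blue and replicate 2 in orange, with 95% Wilson intervals for counting error. Muscle-type Tpm3 stands at 168 in replicate 1 and 1136 in replicate 2, while cytoskeletal Tpm3 and Tpm4 keep overlapping intervals.

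Muscle-type models held 24232 of the 24428 tropomyosin reads of the first library and 20807 of the 21029 of the second, or 99.1% ± 0.179 (SD, n = 2). Cytoskeletal models held 184 and 128 reads, or 0.753% (0.652 to 0.870) and 0.609% (0.512 to 0.723). The rest were mixed (10 and 37 reads) or could not be assigned (2 and 57 reads). Among muscle-type reads, Tpm1 took 74.1% (73.6 to 74.7) and 73.5% (72.9 to 74.1). Tpm2 took 24.9% (24.4 to 25.5) and 19.1% (18.6 to 19.7). Tpm3 took 0.937% (0.823 to 1.07) and 7.43% (7.08 to 7.79). The higher share of slow Tpm3 in replicate 2 thus stood against a lower share of beta Tpm2, with little difference in alpha Tpm1. Within the pair of alpha and beta chains, Tpm2 held 25.2% (24.6 to 25.7) and 20.6% (20.1 to 21.2) of reads.

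Tpm1 in this muscle was almost a single isoform. The combination 1a, 2b, 6b, 9a spliced to 9b, which is the striated alpha tropomyosin, held 17620 and 14802 reads, or 97.9% (97.6 to 98.1) and 96.8% (96.5 to 97.0) of the gene. The annotated transcript Tpm1-205 carried 17390 and 14641 of these. Exon 6b alone was in 17921 of 17924 informative reads of replicate 1 and in all 15178 of replicate 2. Exon 6a was found alone in 2 reads and beside 6b in 1, all in replicate 1, and a count of 0 in replicate 2 allows a share of up to 0.0198%. Reads with 1a, 2b and 6b that went to 9b without 9a numbered 14 and 14 (0.0778% and 0.0915%).

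Cytoskeletal Tpm1 was scarce and was found mostly in replicate 1, with 38 against 10 reads, or 28.2 and 7.35 CPM. That is 3.83-fold higher in replicate 1 (1.93 to 7.58), and it includes single-exon and partial models. The cytoskeletal share of Tpm1 was 0.211% and 0.0654% over all its reads, and 0.204% and 0.0270% over models with a first exon, an exon 6 and a last exon. Its main form, Tpm1-215, joins exon 1a to exon 2a and ends in 9d, the exon 2a being the one known from smooth muscle. It had 22 and 4 reads (adjusted p = 0.00520 by Fisher's exact test over all transcripts), and exon 2a was in 0.124% (0.0819 to 0.188) and 0.0269% (0.0105 to 0.0690) of reads over that pair. Against the other reads of the gene its adjusted p was 0.0464. Tpm1-211, which starts at 1b and ends in 9d, had 11 reads in replicate 1 and 0 in replicate 2. With a floor of 3 reads in place of the 0, it was 3.70-fold higher in replicate 1. That value takes the 11 reads without counting error, so it is not a lower limit. Tpm1-211 had too few reads to be tested, and it was named for its count in replicate 1 alone.

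Tpm2 was likewise nearly all muscle type. The combination 1a, 2b, 6b, 9a had 5676 and 3730 reads, and Tpm2-202, its annotated transcript, had 5439 and 3588 (89.6% and 88.9% of the gene). No difference in the share of Tpm2-202 within the gene was detected by Fisher's exact test (adjusted p = 0.915), and as a transcript it was lower in replicate 2 like the gene (adjusted p = 8.22e-86, exact test). Tpm2-203, classed as cytoskeletal by its end 9d alone, combines 1a and 2b with 6a and 9d. It had 25 and 5 reads (5.04-fold higher in replicate 1, 1.99 to 12.7, adjusted p = 0.00352 by the exact test). Within the gene its adjusted p was 0.165. Exon 6a was in 0.420% (0.285 to 0.619) and 0.128% (0.0545 to 0.298) of Tpm2 reads, and 25 and 5 of those reads went on to 9d. Among the reads with a first exon, an exon 6 and a last exon, 6a was never joined to 9a, and 1 read in replicate 1 joined 6b to 9d alone.

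The Tpm2 reads also showed a second way to begin the transcript. An exon of 65 bases upstream of exon 1a, at chr4:43523701-43523765, is annotated and holds no coding sequence. It was in 148 and 77 reads, or 2.59% (2.21 to 3.04) and 2.06% (1.65 to 2.56) of reads with exon 1a. The most abundant model with it joins annotated splice sites in a combination that the annotation lacks and had 115 and 56 reads. Counting any exon upstream of 1a, the reads were 174 and 105, or 3.05% and 2.80%, with overlapping intervals. Single-exon Tpm2 reads were 83 in each library. In replicate 2, 52 of them lay on a model of 151 bases in the stretch shared by exon 9d and the far end of exon 9a, and were left unassigned.

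In Tpm3, muscle-type reads were higher in replicate 2, and no difference in cytoskeletal reads was detected. Reads of its muscle type numbered 227 in the first library and 1545 in the second, which is 6.75-fold higher in replicate 2 (5.88 to 7.76). Its cytoskeletal type had 34 and 30 reads, or 25.2 and 22.1 CPM, a ratio of 0.876 (0.538 to 1.42). The interval of the first ratio lies entirely above that of the second. As a result, cytoskeletal reads made up 12.7% (9.26 to 17.3) of Tpm3 in replicate 1 and 1.86% (1.30 to 2.64) in replicate 2. The shares of the 3 marks follow and are not separate results. Exons 1b and 9d define the class, and most of its reads also held exon 6a. Exon 1b began 13.3% (9.69 to 17.9) and 2.25% (1.63 to 3.10) of reads, exon 6a was alone in 11.0% (7.76 to 15.3) and 1.56% (1.06 to 2.30), and 9d alone ended 12.8% (9.33 to 17.4) and 1.87% (1.32 to 2.66).

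**Figure D3:**
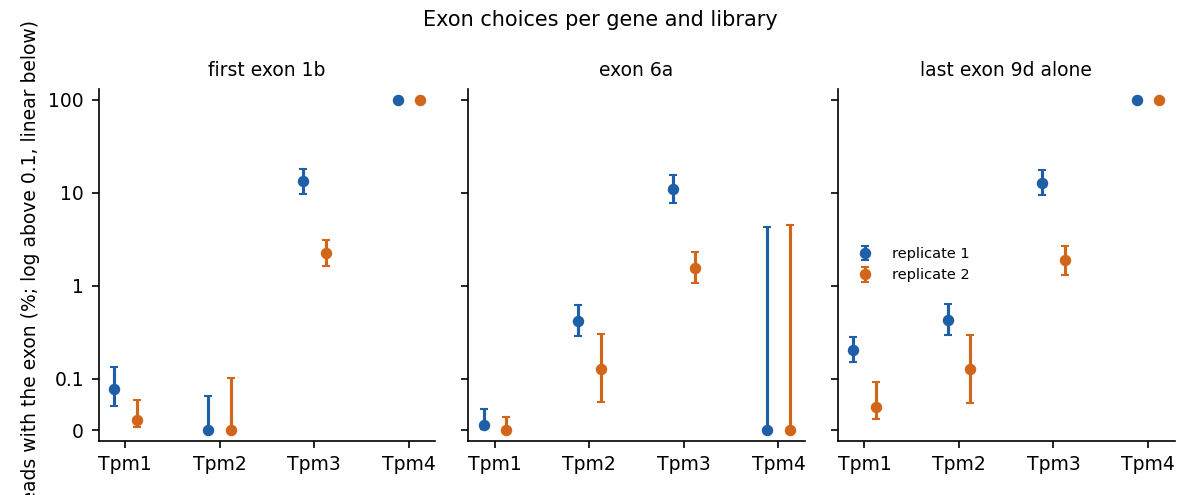
Share of informative reads with first exon 1b, exon 6a and last exon 9d alone, in percent for each tropomyosin gene, replicate 1 in blue and replicate 2 in orange, with 95% Wilson intervals. The axis is logarithmic above 0.1% and linear below, and Tpm3 moves from above 10% to about 2% in each panel. Tpm4 stands at 0% or 100% because its annotation holds no other choice.

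By transcript, 12 of the 32 tropomyosin transcripts tested were called by Fisher's exact test, 5 higher and 7 lower in replicate 2, where 10.1% of all 9139 transcripts were called (5.62% higher and 4.44% lower). The 32 include the pooled single-exon models of Tpm1 and Tpm2. Tpm3-205, the slow muscle isoform with 1a, 2b, 6b, 9a and 9b, had 216 and 1467 reads (6.74-fold, 5.84 to 7.77, adjusted p = 3.26e-223 by the exact test). Tpm3-201, the cytoskeletal isoform with 1b, 6a and 9d, had 28 and 23 (ratio 0.815, 0.473 to 1.41, adjusted p = 0.806 by the exact test). Against the other reads of Tpm3, both differed: Tpm3-205 with an adjusted p of 3.85e-04 and Tpm3-201 with 8.44e-10. That test called 7 of the 32 tropomyosin transcripts, against 3.1% of all transcripts. The rarer cytoskeletal form of Tpm3 with 1b, 6b and 9d had 6 reads in each library.

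For single exons, the main rule tested those with a pooled inclusion of 5% to 95%, of which 0.405% were called. Only 3 tropomyosin exon forms entered it, and 0 of them were called by Fisher's exact test. Exons 6a, 6b and 9a of Tpm3 missed that range because the many muscle reads of replicate 2 outweigh the rest. With a wider range of 1% to 99%, chosen after seeing this, 10 tropomyosin exon forms were tested and 3 called, against 0.167% of 6593 exons. Exon 6b of Tpm3 was included by 235 of 264 and 1573 of 1598 reads, or 89.0% (84.7 to 92.2) and 98.4% (97.7 to 98.9), with an adjusted p of 4.20e-09 by the exact test. Exon 6a mirrored it (adjusted p = 6.66e-09, exact test), and exon 9a was in 87.0% (82.4 to 90.6) and 98.1% (97.3 to 98.7), with an adjusted p of 1.14e-10 by the exact test. Since the exons of a long read are read together, these 3 calls rest on the same molecules.

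The bases before each start of Tpm3 are shown because exon 1a was in 229 and 1566 reads and exon 1b in 35 and 36. They are RefSeq's, for GRCm38.p6. Capitals mark each match to the E-box motif CANNTG, searched on both strands, which basic helix-loop-helix factors such as the myogenic ones can bind.

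Tpm3 before exon 1a, chr3:90072401-90072648, plus strand: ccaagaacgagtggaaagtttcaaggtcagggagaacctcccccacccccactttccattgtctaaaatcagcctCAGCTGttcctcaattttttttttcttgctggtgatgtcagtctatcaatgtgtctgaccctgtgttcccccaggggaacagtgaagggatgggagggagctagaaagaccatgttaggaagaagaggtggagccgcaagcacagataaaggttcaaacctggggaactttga
Tpm3 before exon 1b, chr3:90079271-90079520, plus strand: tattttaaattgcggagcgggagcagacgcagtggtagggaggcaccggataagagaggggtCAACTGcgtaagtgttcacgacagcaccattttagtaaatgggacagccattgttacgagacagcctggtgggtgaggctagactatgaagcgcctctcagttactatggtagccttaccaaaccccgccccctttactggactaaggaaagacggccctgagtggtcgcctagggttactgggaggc

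The window before 1a has a GC content of 48.8% and 2 CpG sites, and the window before 1b 53.6% and 11. The medians over 32841 promoter windows are 52.4% and 6. Each window holds 1 match to CANNTG, a motif found in 66.2% of all windows. The match before 1a is the palindrome CAGCTG, which 13.0% of windows hold. The promoter windows of Tpm1 exon 1a, Tpm2 exon 1a and Tpm4 exon 1b are richer in GC, at 65.2%, 69.6% and 77.4%. The Tpm1 and Tpm2 windows reach into annotated exons of these genes, since windows were cut at annotated starts only on the plus strand. A match is a description of these letters and not a measured binding site.

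Some Tpm3 reads crossed the usual line between muscle and cytoskeletal ends. Muscle-type beginnings with exon 9a spliced on to 9d, rather than to 9b, had 5 and 26 reads, 1.87% (0.803 to 4.31) and 1.61% (1.10 to 2.35) of the gene. Most of these lay on 1 model of 10 annotated exons in a combination not in the annotation, with 5 and 25 reads. In another model, exon 9a, the following intron and 9b were read as 1 exon of 1118 bases, with 2 and 20 reads. Both models were called higher in replicate 2 by Fisher's exact test (adjusted p = 0.00560 and 0.00246), and neither differed against the other reads of the gene (adjusted p = 1 for each). Mixed reads in all made up 2.25% and 2.17% of Tpm3, so they kept to a like share of the gene in both animals. In Tpm1 and Tpm2, mixed reads numbered 3 and 1, and 1 and 1.

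Tpm4 gave nearly all its reads to a single isoform in both animals. All 86 reads of replicate 1 and all 83 of replicate 2 were classed as cytoskeletal. The annotation has no exon 1a, 6a or 9a for Tpm4, so a read with its start or end could get no other class. Tpm4-201, with 1b, 6b and 9d, held 84 and 79 of the reads. Its level was 62.2 and 58.1 CPM, a ratio of 0.933 (0.687 to 1.27). Tpm4 held the largest share of cytoskeletal tropomyosin reads, 46.7% (39.7 to 53.9) and 64.8% (56.2 to 72.6). Tpm3 held 18.5% and 23.4%, Tpm1 20.7% and 7.81%, and Tpm2 14.1% and 3.91%. For cytoskeletal reads, the ratio of replicate 2 to replicate 1 had an interval that includes 1 in Tpm3 and Tpm4. In Tpm1 and Tpm2 the interval lay below 1 (0.132 to 0.517 and 0.0757 to 0.481).

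Most reads of these genes spanned the whole transcript. Models that held a first exon, an exon 6 and a last exon carried 98.2% and 96.9% of Tpm1 reads, 94.0% and 92.7% of Tpm2, 98.1% and 98.5% of Tpm3, and 98.8% and 97.6% of Tpm4. Annotated transcripts held 96.3% ± 0.749 of Tpm1 reads, 89.5% ± 0.697 of Tpm2, 92.0% ± 0.793 of Tpm3 and 96.4% ± 1.76 of Tpm4 (SD, n = 2), against 65.6% ± 0.436 over all annotated genes. At least 10 reads in either library were carried by 8 annotated transcripts and 24 unannotated spliced models, 16 of which were incomplete versions of an annotated one. Of the 16, all but 1 lacked the 5′ part. The most frequent in replicate 2 was a Tpm1 model of 6 exons that begins inside exon 5, 39 bases after its usual start, with 58 and 195 reads (3.34-fold, 2.49 to 4.47, adjusted p = 2.04e-16 by Fisher's exact test). A Tpm1 model of 4 exons had 25 and 54 reads (adjusted p = 0.0195, exact test), whereas the model of 7 exons had 38 and 22 reads and that of 8 exons 60 and 41, and neither was called. In Tpm2 a model of 4 exons had 61 and 72 reads and was called only against the other reads of its gene (adjusted p = 0.0328, exact test), while models of 8 exons (75 and 40 reads) and 6 exons (34 and 14) were lower in replicate 2 like the gene. The first exon of that Tpm2 model of 6 exons runs from inside exon 3 through the intron into exon 4, so it is not merely shortened. Whether these shortened reads are cut molecules or begin there was not tested.

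A small shift at exon 4 was shared by 3 of the genes and is shown because it came with the same bases. An unannotated Tpm1 model with 126 and 101 reads starts exon 4 at a point 2 bases later than annotated, which makes it 116 instead of 118 bases. The first 16 bases of exon 4 follow, with the 2 bases left out in capitals.

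Tpm1 exon 4, chr9:67033876-67033993, minus strand: AGgcatgaaagtcatt
Tpm2 exon 4, chr4:43519389-43519506, minus strand: AGgaatgaaggtcatt
Tpm3 exon 4, chr3:90087455-90087572, plus strand: AGgtatgaaggtgatt
Tpm4 exon 4, chr8:72143450-72143567, plus strand: AGgcatgaaggtaata

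The later start was used by 136 of 17799 and 104 of 14927 reads of Tpm1, or 0.764% (0.646 to 0.903) and 0.697% (0.575 to 0.843). In Tpm2 it was 38 of 5823 and 16 of 3804 (0.653% and 0.421%), and in Tpm3 2 of 263 and 9 of 1595 (0.760% and 0.564%). In Tpm4 it was 0 of 85 and 0 of 82, which allows shares of up to 3.53% and 3.66%. Exon 4 begins with AG in all 4 genes, so that the last bases of a 3′ splice site are met again 2 bases on. The shift is not particular to tropomyosins. Among 91 other annotated internal exons that begin with AG and have at least 1000 reads, 83 had a read starting 2 bases later, with a median share of 0.208% and a 90th percentile of 0.510%. Of 1816 such exons with another beginning, 3 did. A shift of 2 bases moves the reading frame.

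The partners of tropomyosin on the thin filament did not move as a group. Of 18 partner genes, 17 were tested, and 6 were higher and 2 lower in replicate 2 by Fisher's exact test, where 4.25% of all genes were called higher and 3.56% lower. Calls rose with depth: 17.2% of genes with at least 100 reads summed and 59.9% with at least 1000 were called in either direction. Many of the partners are that deep. The median log2 ratio of the partners was -0.01, as over all genes tested. The slow troponins were among the higher ones: Tnnt1, which ties troponin to tropomyosin, had 307 and 2599 reads (8.40-fold), Tnnc1, the calcium sensor, 202 and 1354 (6.65-fold), and Tnni1, the inhibitor, 70 and 347 (4.92-fold). The fast troponin C gene Tnnc2 had 22353 and 25746 reads and Tnnt3 1669 and 2044, both called higher by small ratios of 1.14 and 1.22. Cardiac actin Actc1 had 9 and 38. Lower in replicate 2 were Acta1, the skeletal actin, with 74992 and 68399 reads, and the fast inhibitor Tnni2 with 3945 and 2490. The filament ruler gene Neb (196 and 225 reads) and the pointed-end cap Tmod4 (312 and 313) were not called. Tmod1, a cap that binds tropomyosin, had 265 and 206 reads (adjusted p = 0.0659, exact test).

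**Figure D4:**
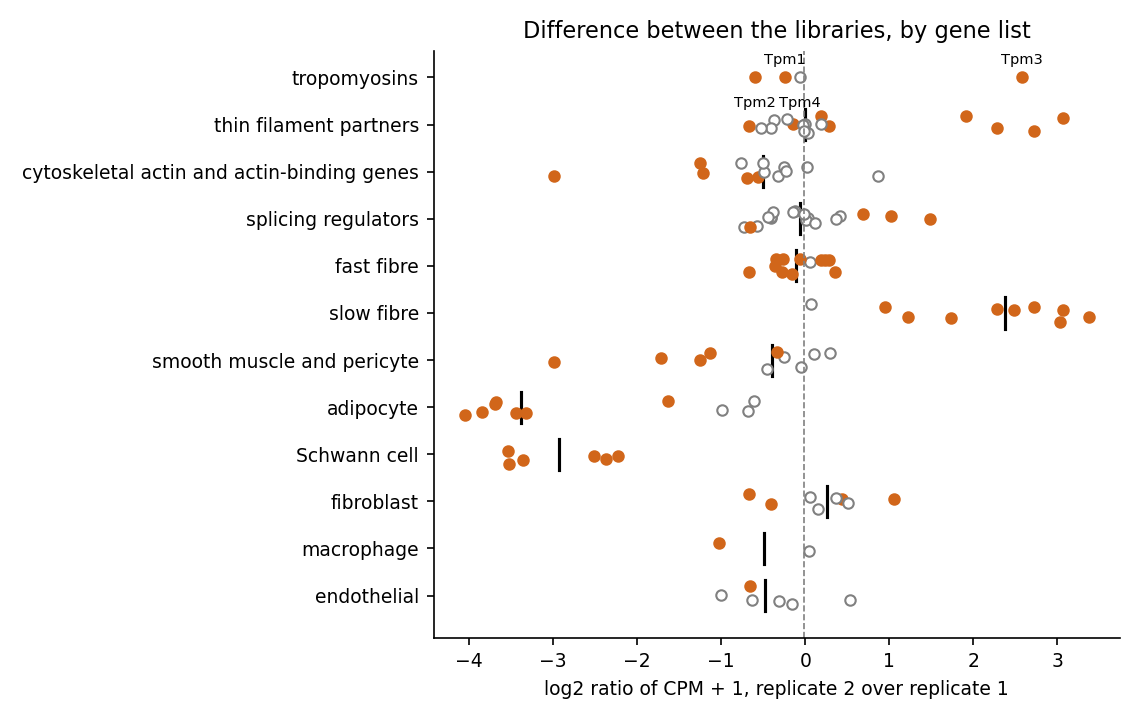
Log2 ratio of CPM + 1, replicate 2 over replicate 1, for the tropomyosins and each member of the gene lists; filled points were called by Fisher's exact test, open points were not, black bars are list medians and the dashed line is the median of all genes. Tpm3 at 2.58 lies within the slow fibre genes, whose median is 2.38, and the other tropomyosins lie between -0.60 and -0.06.

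Slow fibre genes moved with Tpm3. Of the 10 markers, 9 were called higher in replicate 2 and 0 lower, beside 4.25% and 3.56% of all genes, with a median log2 ratio of 2.38, and their summed level was 1442 CPM in replicate 1 and 8372 CPM in replicate 2, with none at 0. Myh7, the slow myosin heavy chain, had 422 and 4414 reads. Its share of the reads of Myh1, Myh2, Myh4 and Myh7 was 1.73% (1.57 to 1.90) and 13.1% (12.7 to 13.5), beside the 0.937% and 7.43% of Tpm3 among muscle-type tropomyosins. Myoz2, a Z-disc protein, had 313 and 331 reads and was the 1 marker not called. All fast fibre markers had at least 1000 reads summed, a depth at which 59.9% of genes were called in either direction. The fast fibre list had 4 of 12 higher and 7 lower with a median of -0.11, and its summed level was 216117 and 210287 CPM. It held the muscle identity of both samples, with Atp2a1, the fast calcium pump, at 201493 and 194599 reads and Myh4, the fastest heavy chain, at 12708 and 16318. The part of fibre makeup in the tropomyosin values was not tested.

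Cytoskeletal actin genes and smooth muscle markers that were called were lower in replicate 2, as cytoskeletal Tpm1 and Tpm2 were by their intervals. Of 13 cytoskeletal actin and actin-binding genes tested, 5 were lower and 0 higher, beside 3.56% and 4.25% of all genes, with a median log2 ratio of -0.50. They included Actb with 227 and 98 reads, Actg1 with 182 and 124, Myl6 with 158 and 98, and the smooth muscle genes Acta2 with 92 and 38 and Cnn1, a calponin, with 33 and 3. Cfl2, the muscle cofilin, had 575 and 588. Of 10 smooth muscle and pericyte markers, 5 were lower and 0 higher, with a median of -0.39. The 5 include Acta2 and Cnn1, which the first list also counts, and Des. Summed levels of the markers were 4475 and 3540 CPM, and none was at 0. Most of that sum was Des, which skeletal fibres also make, with 5235 and 4193 reads. Myl9, a regulatory light chain, had 88 and 26 reads, whereas Myh11, the smooth muscle heavy chain, had 31 and 30 and the pericyte gene Rgs5 272 and 296. Their part in the lower read counts of Tpm1-215, Tpm1-211 and Tpm2-203 in replicate 2 was not tested.

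Markers of other tissue are read against the 3.56% of all genes called lower and the 4.25% called higher. Of 10 adipocyte markers tested, 7 were lower, with summed levels of 1222 and 154 CPM and Retn at 0 reads in replicate 2. All 6 Schwann cell markers tested were lower, at 680.4 and 97.8 CPM summed over the list. Fibroblast markers had 2 higher and 2 lower of 8, with a median log2 ratio of 0.26 and 7996 and 5955 CPM summed. Most of that sum was Gsn, at 5917 and 3723 CPM, so it does not stand for the other fibroblast markers. Macrophage markers had 1 lower of 2 tested (75.6 and 51.5 CPM, with the pan-leukocyte gene Ptprc at 0 and 1 read) and endothelial markers 1 lower of 6 (206 and 144 CPM). The part of these cells in the tropomyosin values was not tested.

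Regulators of splicing formed a further list, and their action on tropomyosin exons was not tested. Of 20 splicing regulators, 18 had reads and were tested, and 3 were higher and 1 lower in replicate 2, with a median log2 ratio of -0.07 (over all genes, 4.25% higher and 3.56% lower). Qk had 192 and 542 reads (2.80-fold, 2.38 to 3.3), Mbnl1 89 and 184 (2.05-fold) and Mbnl2 269 and 437 (1.61-fold). Rbm20 had 106 and 67 and was lower (adjusted p = 0.0405 by the exact test). Rbm24, a regulator of muscle exons, had 263 and 266 reads, and Rbfox1 60 and 36, which was not called (adjusted p = 0.126, exact test). Ptbp1, known as a repressor of muscle exons, had only 7 and 5 reads, and Ptbp2 11 and 7. Mbnl3 and Esrp1 had no read in either library.

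The genes nearest to each tropomyosin in log2 ratio were named among 1565 genes with at least 200 reads. This likeness rests on 1 difference between 2 libraries. For Tpm3, at 2.58, they were Atp2a2 (2.48), the slow calcium pump, Tnnc1 (2.73) and Tnni1 (2.28), which are slow fibre genes. For Tpm1 they were Cpe, Gpx4 and Skp1a, and for Tpm2 Emc3, Map2k3 and Klhl41. For Tpm4 they were Atp2a1, Pigp and Hadha.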

How the data were processed

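Long-read RNA-seq libraries of gastrocnemius from 2 mice were analysed, 1349298 and 1359923 reads, with 1 read worth 0.741 and 0.735 CPM. Spike-in reads made up 3.61% and 1.48% and stayed in the totals. The deposited tables give raw counts of reads per transcript model. Per the deposited notes the build is mm10 with GENCODE M21, and the source field of the deposited annotation names TALON, whose classes it uses (annotated, incomplete splice match, new combination, unannotated splice site, genomic). The sources used here do not give the aligner, versions or filters. The labels' replicate numbers name the animals. The libraries differed beyond sampling noise (chi-square of 5.90 per degree of freedom, 7470 genes).

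Counts were summed by gene, by transcript (annotated identifier, or gene and intron chain) and by named exon. Two-sided Fisher's exact tests compared genes with at least 10 reads summed, transcripts with at least 20, and internal exons with at least 20 informative reads in each library, with Benjamini-Hochberg adjustment over each table and a threshold of 0.05. Log2 ratios used CPM + 1. Shares and folds carry 95% Wilson intervals, and zeros used a floor of 3 reads. Class shares were not tested. With 2 animals a two-sided sign test cannot give a p below 0.5, and edgeR 4.0.16 (R 4.3.3) was used only with an assumed dispersion of 0.01. Scripts ran in Python 3.11.15 with SciPy 1.17.1, and the tests were checked on simulated data. The comparison of exons that begin with AG was chosen after the shift was seen.

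The tropomyosins and the gene lists were chosen with earlier results of these data known. Named were all transcripts with at least 10 reads in either library, in each list the 3 most abundant members and, where the higher of both counts reached 20, the 3 with the largest absolute log2 ratio, and the 3 nearest genes. Other list members named were chosen for their role after their values were seen. Without a protein table, amino acids were not analysed here.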

Additional observations from a re-analysis of the deposited data

Results flagged for a closer look

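Reads outside the gene comparisons were seen at or beside the tropomyosin genes, above the 3 reads taken as the floor. On the strand opposite to Tpm1, unannotated single-exon models held 8 reads on 1 model in replicate 1 and 21 reads on 6 models in replicate 2. The other antisense counts were 1 and 1 at Tpm2, 0 and 5 at Tpm3, and 0 and 1 at Tpm4. The annotated gene Tpm3-rs7, described here as a Tpm3-like copy from its name, held 15 reads in replicate 1 and 5 in replicate 2. These are few beside the 267 and 1615 reads of Tpm3, and the sources used here do not say how reads were divided between the copies, so both counts are uncertain to that extent.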

How the results depend on the processing

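The direction of every tropomyosin gene stayed the same in its 10 alternatives, with log2 ratios of 2.53 to 2.60 for Tpm3, -0.28 to -0.24 for Tpm1, -0.63 to -0.59 for Tpm2 and -0.10 to -0.05 for Tpm4. Calls differed only when edgeR assumed a dispersion of 0.01, which gave the same ratios for Tpm1 (-0.25) and Tpm2 (-0.60) without a call, and called 173 genes in place of 730. Of 45 recomputed isoform shares, 42 moved by less than the spread between the libraries. The share of Tpm1 among muscle-type reads was 74.4% with complete models and 74.9% with annotated transcripts alone (73.8% as reported), and the muscle share of Tpm2 was 98.0% with exons matched by their splice sites (99.1% as reported). Exon calls were 28 with annotated and new-combination models alone in place of 8, and transcript calls 283 against the other reads of the gene in place of 920. The cause of these moves was not tested, apart from the wider error that the dispersion assumes. Leaving out either animal leaves the value of the other, as printed per library. No paired analysis was possible because the labels give 1 group. Depth limits Tpm4 and the cytoskeletal forms, which rest on fewer than 100 reads per gene and library.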
